A study of Mus musculus with 12 samples.

Results

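The comparison described here sets mouse colorectal cancer tissue grown in fatty liver against the same kind of tissue grown in healthy liver, both from mice that received vehicle. Its members are the arrays whose titles name vehicle treatment, 3 from fatty and 3 from healthy liver, which make up 6 of the 12 arrays of the series. Mouse colorectal cancer cells had been injected into healthy or fatty livers, tumour tissue came from 3 mice in each of 4 groups per the design text, and 1 array of the whole-transcript, single-colour kind was run on total RNA for each. The other 6 arrays came from mice given anti-VEGF, an agent against vascular endothelial growth factor, again 3 for each liver. All values are log2 expression, so a difference of 1 is a doubling, and differences are given as fatty minus healthy liver. The labels name neither the tumour line, the mouse strain, the age nor sex of the mice, nor how the livers were made fatty, and the replicates are called biological.

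A metastasis in the liver is a mixture of tumour cells and host cells, and an array of whole tissue reads their RNA together. Growing tumour cells spend much of their transcription on ribosome assembly, nucleotide synthesis, DNA replication and mitosis. Transcriptional coactivators such as YAP, which acts through TEAD factors at DNA, link attachment and cell shape to growth. Macrophages and lymphocytes of the host bring other programmes, among them lysosomal proteases and granzymes. In such bulk samples, fewer cells of a type and less RNA per cell cannot be told apart.

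The arrays of each group were not alike. Over the 13286 tested genes, the SD of the difference between arrays 1 and 3 was 0.163 in healthy and 0.163 in fatty liver, while array 2 differed from them with SDs of 0.634 and 0.636 in healthy and 0.405 and 0.391 in fatty liver. Whether arrays 1 and 3 of a group came from separate mice cannot be seen in the values, and p-values then measure only the spread between these samples. Counts are therefore also given with such nearly alike arrays averaged to 1 sample, which in the whole fit also joins the 3 healthy liver arrays under anti-VEGF. Xist, which coats and silences 1 X chromosome of female cells, read 8.10, 4.03 and 8.43 in healthy and 10.58, 4.27 and 10.45 in fatty liver on arrays 1, 2 and 3. Array 2 of both livers was therefore the one low in Xist, and it was the one high in Y-linked genes. Uty read 4.04, 7.27 and 4.03 in healthy and 4.16, 8.54 and 3.84 in fatty liver, and Kdm5d 2.99, 5.79 and 3.12 against 2.89, 6.99 and 3.44. Eif2s3y was also highest on array 2, with 4.43, 7.32 and 4.07 in healthy and 2.76, 8.82 and 4.36 in fatty liver. Xist passed no test between the livers (adjusted p = 0.427), and the part of these differences in the results was not tested.

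Cell type markers differed both between livers and between arrays. The mean of the 16 tested macrophage markers lay between 8.94 and 9.91 on the healthy liver arrays and between 11.05 and 11.12 on the fatty liver arrays, and that of 19 T and NK cell markers between 5.20 and 5.85 against 7.97 and 8.52. Neutrophil markers (7 tested) lay between 5.39 and 6.13 against 7.84 and 8.64, and dendritic cell markers (8 tested) between 6.17 and 6.57 against 8.15 and 8.35, so the livers did not overlap in any of these 4 list means. Macrophage genes rose in 15 of 16 cases and T and NK cell genes in 19 of 19, beside 19.2% of all tested genes in limma at an adjusted p below 0.05. With nearly alike arrays averaged 8 of 16 and 2 of 19 were higher, beside 4.47% of all tested genes. Endothelial markers (15 tested) instead followed array 2, with means of 5.73, 9.01 and 5.79 in healthy and 6.14, 7.68 and 6.08 in fatty liver. So did fibroblast markers (12 tested), at 6.93, 9.41 and 6.86 against 6.78, 8.21 and 6.77. Of 23 hepatocyte genes with a row, 18 lay at or below the limit of 4.93 on all 6 arrays, including Alb, at 3.24, 3.87 and 3.75 in healthy and 3.57, 4.07 and 3.57 in fatty liver. Of 13 neutrophil genes with a row, 6 lay there as well, Ly6g among them. Of the 7 tested neutrophil genes 3 were called higher, and 1 with averaging. That limit is the median of the whole table, and values below it were taken as not distinguishable from background.

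**Figure D1:**
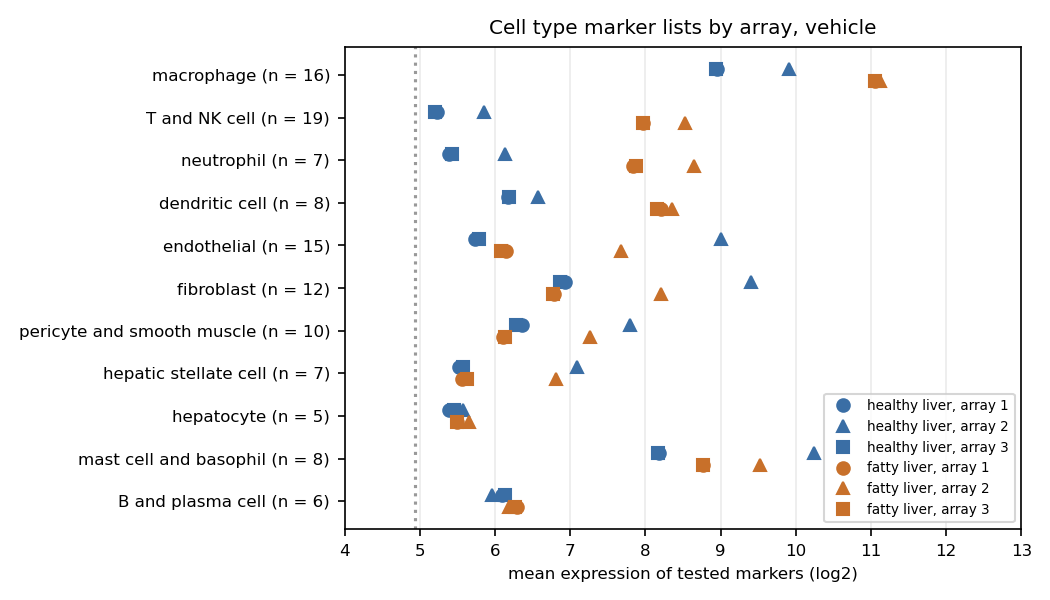
Mean log2 expression of the tested markers of each cell type (rows, with the number of tested markers) on each of the 6 vehicle arrays; blue marks healthy and orange fatty liver, shapes mark arrays 1, 2 and 3, and the dotted line is the limit of 4.93. Macrophage means sit between 8.94 and 9.91 in healthy and between 11.05 and 11.12 in fatty liver, whereas endothelial and fibroblast means are highest on array 2 of each liver.

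The defining markers of intestinal epithelium were largely absent. Epcam, an adhesion protein of epithelia, read 3.27, 3.28 and 3.47 in healthy and 3.65, 3.78 and 3.37 in fatty liver. The intestinal keratin Krt20 (3.44 to 4.38) and villin, Vil1 (3.43 to 3.89), also stayed below the limit on all 6 arrays, and the intestinal transcription factor gene Cdx2 lay around it (4.66 to 5.14). In all, 21 of 40 genes of a list for intestinal epithelium and colorectal cancer were at or below the limit on all 6 arrays and 18 could be tested. Krt8, a keratin of simple epithelia, was well measured, at 10.51, 10.17 and 10.49 in healthy and 9.82, 9.12 and 9.73 in fatty liver. The tissue is called colorectal cancer here as the labels name it.

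Falls in fatty liver were more numerous and smaller, and rises fewer and larger. In limma, at an adjusted p below 0.05, 4045 of the 13286 tested genes were lower in fatty liver (30.4%) and 2550 were higher (19.2%). The median size of a call was 0.58 among the lower and 0.96 among the higher genes. No lower gene differed by more than 2, and the largest fell by 1.94, whereas 501 higher genes did, up to 4.54. All 3 fatty liver arrays lay below all 3 healthy liver arrays for 4947 genes (37.2%) and above them for 3137 (23.6%), and 3888 lower and 2505 higher calls had no overlap. The median difference of all tested genes was -0.12, which has not been subtracted. Without array 1 or 3 of healthy liver or array 2 of fatty liver, the number of lower genes was 2606, 2576 and 2649. With averaging, 127 genes were lower (0.956%) and 594 higher (4.47%), and the share of calls that were lower went from 61.3% to 17.6%. With array 2 as the only vehicle array of each liver, assumed to vary like the other groups, 427 genes were lower and 630 higher, a share of 40.4%.

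The 18 falls with the widest gap between the nearest arrays of both livers were led by genes of cell adhesion and the cytoskeleton. Pcdhb17, a clustered protocadherin of cell contacts, read 7.41, 7.33 and 7.41 in healthy and 5.72, 5.45 and 5.75 in fatty liver. It fell by 1.75 (SE 0.29, adjusted p = 0.00115), a 3.35-fold change. Cdc42ep1, an effector of Cdc42, read 7.57, 7.57 and 7.57 against 6.19, 6.18 and 6.08, and fell by 1.42 (SE 0.17). These groups lay far apart while their own arrays hardly differed, array 2 included.

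Among the same 18 were genes of the cell membrane and of junctions. Pdgfrb, the receptor for platelet-derived growth factor B, read 10.88, 11.06 and 10.87 in healthy and 9.74, 9.61 and 9.79 in fatty liver and fell by 1.22 (SE 0.16, adjusted p = 0.000347). Tjp1, the tight junction scaffold ZO-1, read 9.27, 9.20 and 9.09 against 8.0, 7.71 and 8.0 (difference -1.28, SE 0.25). Tns2, a tensin of focal adhesions, read 8.63, 8.73 and 8.64 against 7.53, 7.43 and 7.54 (difference -1.17, SE 0.15). Plpp1, which removes phosphate from lysophosphatidic acid, fell by 1.27 (SE 0.12), and the reticulon gene Rtn2 by 1.30 (SE 0.15). The kinase genes Yes1 and Frk, of the Src family and its relatives, fell by 1.49 (SE 0.25) and 1.5 (SE 0.28). Pdgfrb is also a pericyte marker, and over the 10 tested pericyte and smooth muscle markers the array means ran from 6.28 to 7.80 on healthy liver arrays and from 6.10 to 7.26 on those of fatty liver.

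Matrix, transcription and cell death genes completed the group. Casp12, an inflammatory caspase, read 7.45, 7.64 and 7.52 in healthy and 6.23, 6.24 and 6.13 in fatty liver and fell by 1.33, with the smallest adjusted p of the 18 (SE 0.11, adjusted p = 8.64e-05). Tinagl1, a matricellular protein, read 9.45, 9.37 and 9.44 against 8.08, 7.83 and 7.97, and Prelp, a leucine-rich matrix protein, 8.65, 8.78 and 8.68 against 7.22, 7.51 and 6.99. Both fell by 1.46, with SEs of 0.22 and 0.16. Nfib, a transcription factor gene of the nuclear factor I family, fell by 1.29 (SE 0.24), Mid2, a ubiquitin ligase of microtubules, by 1.45 (SE 0.35), and the zinc finger gene Zfp985 by 1.74 (SE 0.29) to a mean below the limit. Pcdhb20 (-1.54) and the vomeronasal receptor genes Vmn1r148 (-1.66) and Vmn1r94 (-1.54) belong, like Pcdhb17, to families of near-identical copies, so which copy these rows read is uncertain. All 18 kept their call without any 1 of the 12 arrays, and 10 of the 18 kept it with nearly alike arrays averaged. They were chosen on these arrays, so this describes them and supports nothing.

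**Figure D2:**
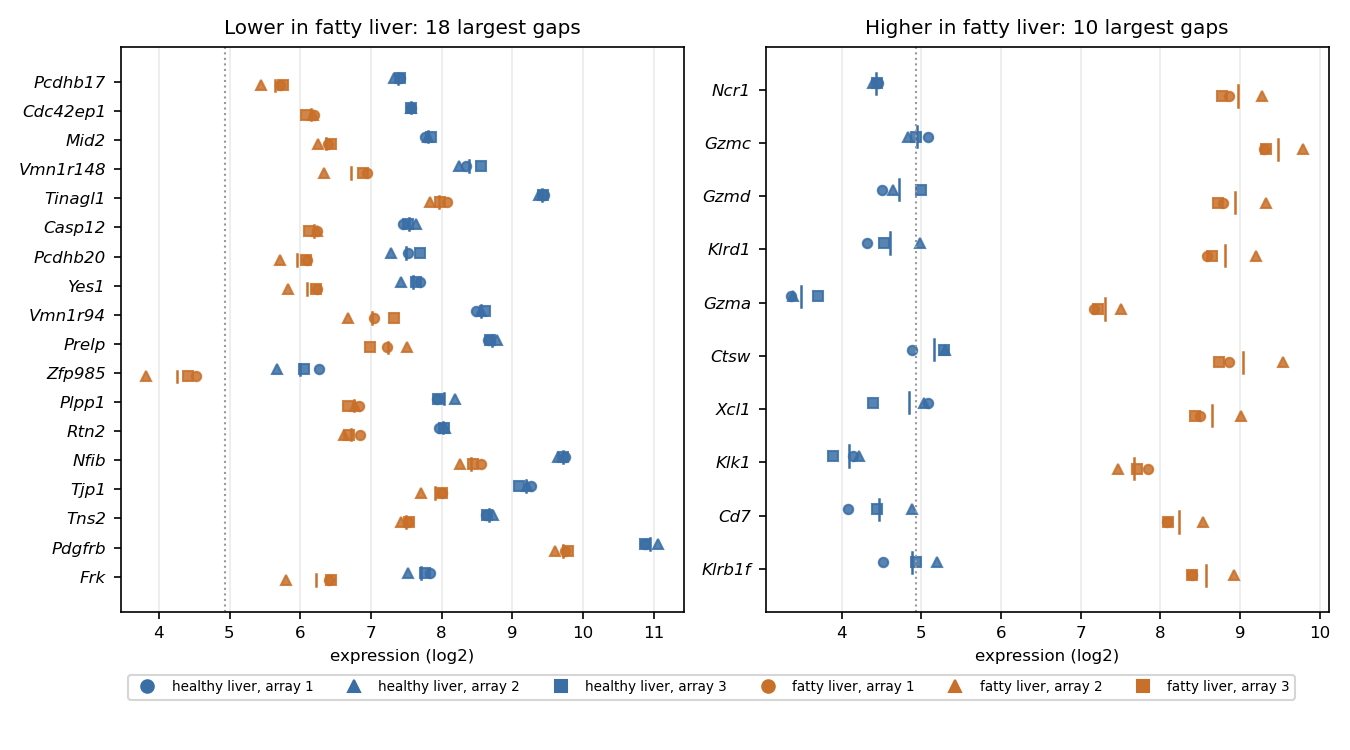
Log2 expression of the 18 genes lower and the 10 genes higher in fatty liver with the widest gaps between the groups, on each of the 6 vehicle arrays; blue marks healthy and orange fatty liver, shapes mark arrays, short vertical lines are group means (n = 3) and the dotted line is the limit of 4.93. The genes were chosen for these gaps, which run from 1.08 to 1.58 for the lower and from 3.18 to 4.32 for the higher genes.

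Genes that build ribosomes and charge tRNA were lower in fatty liver almost throughout. Of 38 tested genes of ribosome biogenesis and the nucleolus, 32 fell (84.2%) and 0 rose, against 30.4% and 19.2% of all genes, with a median difference of -0.58. Dkc1, the pseudouridine synthase dyskerin, read 9.88, 9.83 and 9.96 in healthy and 9.14, 8.87 and 9.20 in fatty liver (difference -0.82, SE 0.15, adjusted p = 0.00174). Noc3l, a factor for export of the large subunit, read 9.63, 9.39 and 9.63 against 8.74, 8.47 and 8.76 (difference -0.89, SE 0.12). Rrp9 fell by 0.79 (SE 0.12) and Gar1, a partner of dyskerin, by 0.85 (SE 0.17). All 18 tested aminoacyl-tRNA synthetase genes fell, with a median of -0.50 and a range from -0.65 to -0.21. Kars, the lysyl-tRNA synthetase, read 10.59, 10.44 and 10.63 against 9.97, 9.88 and 9.99, and Iars, the isoleucyl enzyme, 10.97, 10.92 and 10.97 against 10.41, 10.19 and 10.40. On all 18 synthetase genes every fatty liver array lay below every healthy liver array.

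The ribosome's own proteins behaved otherwise. Of 34 tested genes for cytosolic ribosomal proteins 1 fell and 2 rose, with a median difference of -0.08. Rps15 fell by 0.82 (SE 0.23, adjusted p = 0.0128), and Rps19 rose, from 10.67, 10.50 and 10.57 to 11.17, 10.96 and 11.21 (difference 0.54, SE 0.10). The number falling was 5 without healthy liver array 2 and 3 in the fit of the vehicle arrays alone with the replicate block, and the number rising was 1 without array 1 or 3 of either liver. Many ribosomal protein genes have processed copies, so their rows can read more than 1 locus. Translation factors fell in 17 of 27 cases, with 1 rise and a median of -0.25; 11, 11 and 10 fell without array 1 or 3 of healthy liver or array 2 of fatty liver. Eif2b3, a subunit of the exchange factor of translation initiation, read 8.58, 8.35 and 8.67 against 7.95, 7.30 and 7.82 (difference -0.84, SE 0.18). The rise was Eif4a1, an initiation helicase (0.27, SE 0.09, adjusted p = 0.0333), and leaving out array 2 or 3 of either healthy liver group, or vehicle array 1 or 3 of fatty liver, ended that call. Chaperonin and cytosolic heat shock genes fell in 12 of 20 cases (median -0.34), such as Cct8, a chaperonin subunit (difference -0.43, SE 0.09). Proteasome genes fell in 5 of 29 cases and rose in 2 (median -0.13), below the background in both directions; 3 fell without healthy liver array 1 or 3 or fatty liver array 3, and 1 rose without array 1 or 2 of either liver or with the replicate block. With nearly alike arrays averaged, 1 gene of these 6 lists was lower, Noc3l (adjusted p = 0.0491), and none was higher.

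**Figure D3:**
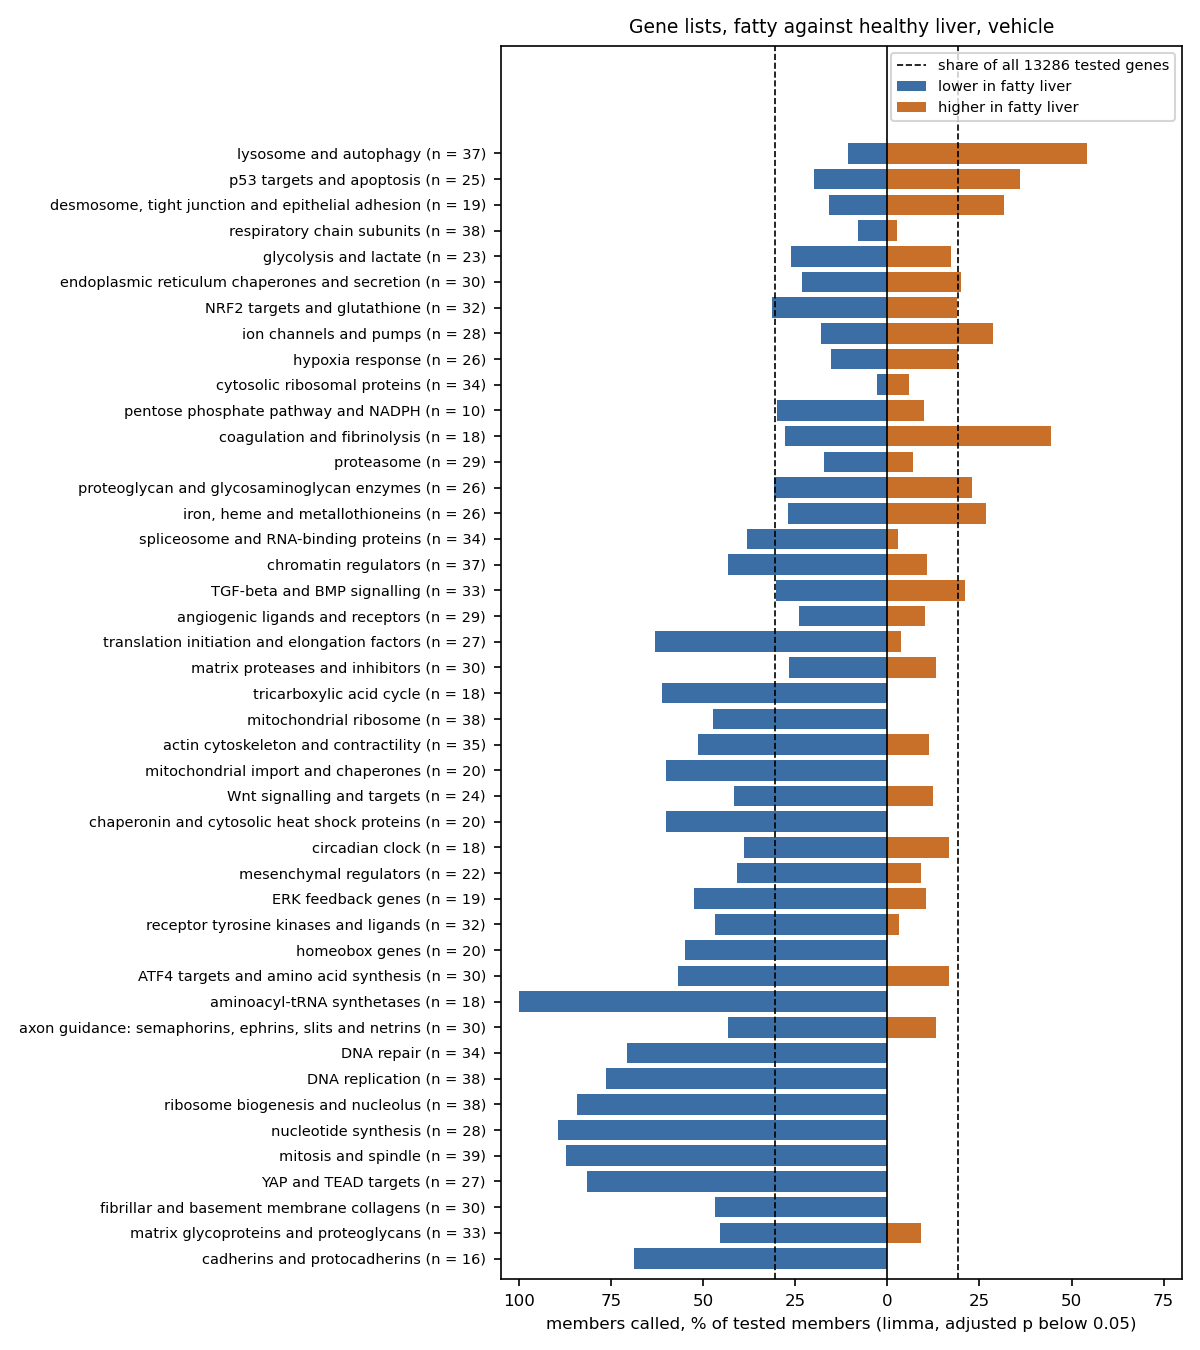
Share of tested members of each of 44 gene lists called lower (blue, to the left) or higher (orange, to the right) in fatty liver, in % of tested members (n in each label), ordered by median difference; dashed lines mark the shares among all 13286 tested genes, 30.4% and 19.2%. All aminoacyl-tRNA synthetases and 84.2% of ribosome biogenesis genes were lower, while cytosolic ribosomal proteins and respiratory chain subunits lay below the background in both directions.

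Nucleotide synthesis, DNA replication and DNA repair genes fell together with these. Of 28 tested genes of nucleotide synthesis 25 fell (89.3%), with a median of -0.66. Cad, the enzyme that opens pyrimidine synthesis, read 9.49, 9.16 and 9.54 in healthy and 8.57, 8.10 and 8.61 in fatty liver (difference -0.97, SE 0.22, adjusted p = 0.00494). Ppat, which commits to purine synthesis, read 9.37, 9.10 and 9.21 against 8.44, 8.31 and 8.41 (difference -0.84, SE 0.18). Shmt2, the mitochondrial source of one-carbon units, fell by 0.81 (SE 0.13), and Umps, the last enzymes on the way to UMP, by 0.87 (SE 0.16). In DNA replication 29 of 38 genes fell (median -0.58), among them Orc6 of the origin recognition complex (9.88, 9.76 and 9.82 against 9.21, 8.99 and 9.12) and Pole2, a polymerase epsilon subunit (9.38, 9.20 and 9.35 against 8.71, 8.24 and 8.67). In DNA repair 24 of 34 genes fell (median -0.57), with the checkpoint kinase gene Chek1 at 8.53, 8.29 and 8.33 against 7.51, 7.22 and 7.65. Brca2, which loads recombinase on single strands, fell by 1.09 (SE 0.26), and the nuclease gene Exo1 by 0.98 (SE 0.22). The replication count was 14, 15 and 10 and the repair count 14, 13 and 12 without array 1 or 3 of healthy liver or array 2 of fatty liver. With nearly alike arrays averaged, Chek1 stayed below the threshold (adjusted p = 0.0473) and no other gene of these 3 lists did.

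Mitosis genes were lower in fatty liver almost throughout as well. Of 39 tested genes of mitosis and the spindle 34 fell (87.2%) and 0 rose, with a median of -0.80, and on 37 of them every fatty liver array lay below every healthy liver array. Ect2, which positions the cleavage furrow, read 11.06, 10.79 and 10.96 in healthy and 9.94, 9.65 and 10.16 in fatty liver (difference -1.02, SE 0.21, adjusted p = 0.0033). The spindle motor Kif11 read 9.95, 9.86 and 9.90 against 9.17, 8.74 and 9.23 (difference -0.85, SE 0.19). Cdc20, an activator of the anaphase-promoting complex, read 10.56, 10.12 and 10.44 against 9.43, 9.09 and 9.54 (difference -1.02, SE 0.20). Cdc20 is named for its promoter, shown next, and was not among the 4 widest gaps of the list. Ndc80 of the kinetochore fell by 0.99 (SE 0.18) and the midzone kinesin Kif20a by 0.95 (SE 0.23). Mki67, a marker of dividing cells, went the same way without passing, at 10.04, 10.04 and 10.01 against 9.70, 9.41 and 9.81 (difference -0.39, SE 0.17, adjusted p = 0.0776), and it passed without fatty liver anti-VEGF array 1 or 3. Between 28 and 38 mitosis genes fell when any 1 array was left out, and 0 with nearly alike arrays averaged. The median was -0.72 within arrays 1 and 3 and -0.94 within array 2.

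Promoters of these genes are known for 2 elements, the CHR (TTTGAA), bound by complexes that silence mitotic genes in resting cells, and the NF-Y box (CCAAT). Both were searched on both strands of RefSeq promoter windows of 300 bases (GRCm38.p6, from 250 before to 50 after the start). Of 31 windows of 29 mitosis genes that fell, 80.6% held TTTGAA and 77.4% CCAAT, beside 12.2% and 36.8% of 13094 windows of tested genes and 17.9% and 37.4% of all 32851 windows in the table. Among 33 windows of 26 replication genes that fell, the E2F element TTTCGCG stood in 21.2%, beside 1.6% of windows of tested genes. The lists were assembled from genes known for these functions, so the shares describe the lists and are no evidence about any factor. The 200 bases before the start, 5′ to 3′ on the gene's strand, are shown, so that the elements can be seen in place, for the 3 mitosis genes that fell with the widest gaps whose sequence holds both elements, at chr3:27153879-27154078 (minus strand) for Ect2, chr19:37376182-37376381 (plus) for Kif11 and chr4:118437344-118437543 (minus) for Cdc20. Capitals mark TTTGAA and CCAAT or their reverse complements, TTCAAA and ATTGG.
Ect2: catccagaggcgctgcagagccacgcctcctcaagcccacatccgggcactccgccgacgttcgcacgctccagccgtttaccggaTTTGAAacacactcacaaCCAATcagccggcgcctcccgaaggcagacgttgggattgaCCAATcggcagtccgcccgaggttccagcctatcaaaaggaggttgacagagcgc
Kif11: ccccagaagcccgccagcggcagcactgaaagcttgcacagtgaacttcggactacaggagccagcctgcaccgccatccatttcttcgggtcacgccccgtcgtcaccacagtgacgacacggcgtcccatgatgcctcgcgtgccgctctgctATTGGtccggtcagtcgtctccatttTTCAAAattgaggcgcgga
Cdc20: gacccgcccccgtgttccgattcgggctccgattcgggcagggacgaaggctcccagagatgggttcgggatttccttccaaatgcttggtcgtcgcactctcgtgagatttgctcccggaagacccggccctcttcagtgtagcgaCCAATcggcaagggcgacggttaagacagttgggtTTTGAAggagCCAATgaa
Ect2 and Cdc20 hold CCAAT at 2 places and Kif11 at 1, and TTTGAA stands once in each.

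Mitochondrial genes split by function. Genes of the mitochondrial ribosome fell in 18 of 38 cases (median -0.27), those of protein import and mitochondrial chaperones in 12 of 20 (-0.30) and those of the tricarboxylic acid cycle in 11 of 18 (-0.27), with 0 rises in each. Subunits of the respiratory chain fell in 3 of 38 cases and rose in 1, with a median of 0.02. Mrps5, a small subunit protein of the mitochondrial ribosome, read 9.15, 9.12 and 9.15 in healthy and 8.6, 8.34 and 8.47 in fatty liver (difference -0.67, SE 0.10, adjusted p = 0.000592). Tomm40, the channel of the outer membrane, read 9.37, 9.20 and 9.47 against 8.87, 8.75 and 8.81 (difference -0.54, SE 0.13). Suclg2, a succinyl-CoA synthetase subunit, fell by 0.71 (SE 0.18). In the respiratory chain the complex I subunit Ndufs4 rose, from 10.31, 10.32 and 10.36 to 10.81, 10.94 and 10.84 (difference 0.53, SE 0.08), and another, Ndufv1, fell by 0.44 (SE 0.10). Without array 1 or 3 of healthy liver or array 2 of fatty liver, the falls numbered 8, 8 and 9 for the mitochondrial ribosome, 4, 7 and 4 for import and 6, 4 and 6 for the cycle. Respiratory chain falls numbered 6 without fatty liver anti-VEGF array 1 or 3, and rises 2 when healthy liver vehicle array 2, fatty liver vehicle array 3 or 1 of the fatty liver anti-VEGF arrays was left out. With nearly alike arrays averaged, no gene of these 4 lists passed.

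**Figure D4:**
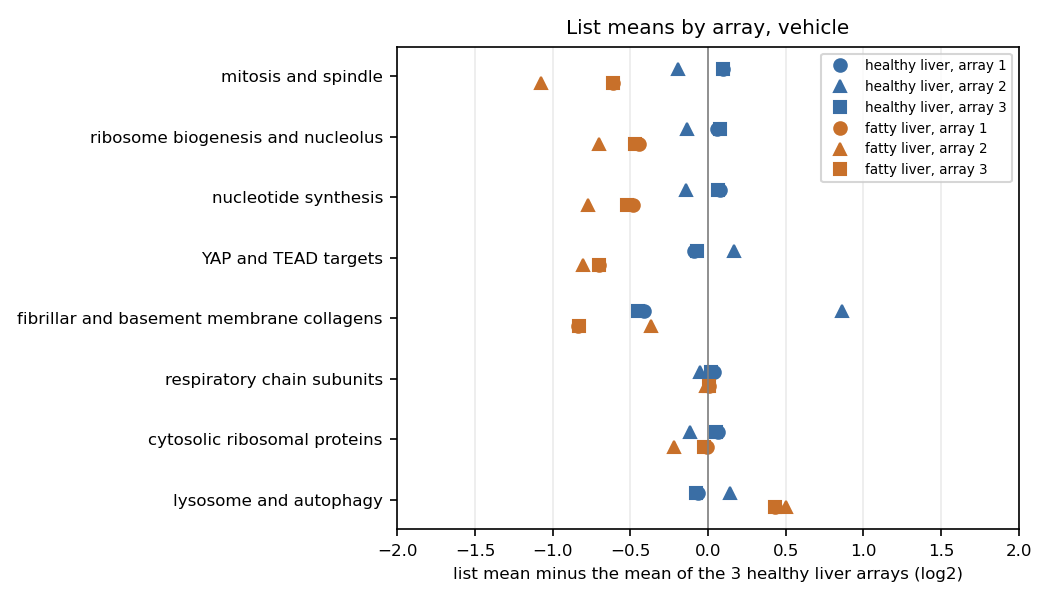
Mean log2 expression of 8 gene lists on each vehicle array, minus the mean of the 3 healthy liver arrays for that list; blue marks healthy and orange fatty liver, and shapes mark arrays 1, 2 and 3. Mitosis, ribosome biogenesis, nucleotide synthesis and YAP target means are lower on all 3 fatty liver arrays, respiratory chain means lie together, and collagen means are highest on array 2 of each liver.

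Targets of YAP and TEAD factors were lower as a list. Of 27 tested genes 22 fell (81.5%) and 0 rose, with a median of -0.81. Ankrd1, a nuclear ankyrin repeat protein, read 7.18, 7.11 and 7.59 in healthy and 6.25, 5.75 and 6.15 in fatty liver (difference -1.25, SE 0.18, adjusted p = 0.000563). Ptpn14, a phosphatase that restrains YAP, read 8.11, 8.46 and 8.29 against 7.15, 7.01 and 7.21 (difference -1.17, SE 0.20). Crim1, a membrane protein that binds growth factors, had a mean of 10.13 ± 0.14 (SD, n = 3) in healthy and 9.07 ± 0.22 in fatty liver (difference -1.06, SE 0.12). None of these groups overlapped, and Rbms3, an RNA-binding protein, fell by 0.98 (SE 0.13). With nearly alike arrays averaged 4 of 27 members were lower (14.8%), beside 0.956% of all tested genes, and between 18 and 22 fell when any 1 array was left out.

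The TEAD element GGAATG stood in 52.2% of 23 promoter windows of 18 YAP and TEAD targets that fell, beside 12.1% of windows of tested genes and 14.7% of all windows. These genes were listed as known targets, so this describes the list. The 200 bases before the start are shown for the 3 members with the widest gaps that hold it there, at chr1:189728068-189728267 (plus) for Ptpn14, chr19:36119845-36120044 (minus) for Ankrd1 and chr17:78200048-78200247 (plus) for Crim1, with GGAATG or its reverse complement CATTCC in capitals.
Ptpn14: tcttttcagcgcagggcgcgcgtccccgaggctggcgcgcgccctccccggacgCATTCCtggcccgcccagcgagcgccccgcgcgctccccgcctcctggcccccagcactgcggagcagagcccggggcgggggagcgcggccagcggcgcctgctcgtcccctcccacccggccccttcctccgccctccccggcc
Ankrd1: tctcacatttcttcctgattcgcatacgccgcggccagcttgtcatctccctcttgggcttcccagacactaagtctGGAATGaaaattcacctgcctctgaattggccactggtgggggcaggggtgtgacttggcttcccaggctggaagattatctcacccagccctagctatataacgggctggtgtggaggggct
Crim1: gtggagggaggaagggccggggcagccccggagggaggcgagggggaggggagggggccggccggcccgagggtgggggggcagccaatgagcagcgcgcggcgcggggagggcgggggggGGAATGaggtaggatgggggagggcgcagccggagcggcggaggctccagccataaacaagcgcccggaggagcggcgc
Each window holds the element once.

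Actin genes and a list of cadherins and protocadherins were more often lower than higher. In the actin and contractility list 18 of 35 genes fell (51.4%) and 4 rose, with a median of -0.28. Rhoc, a GTPase of stress fibres and motility, read 10.63, 10.65 and 10.67 in healthy and 9.83, 9.73 and 9.92 in fatty liver (difference -0.83, SE 0.13, adjusted p = 0.000906). Smooth muscle actin, Acta2, read 10.46, 10.87 and 10.50 against 9.88, 9.83 and 9.83 (difference -0.76, SE 0.14), and the filamin gene Flnc fell by 1.07 (SE 0.17). The rises included Tln1, the talin that activates integrins (0.53, SE 0.09), and Diaph1, a formin (0.58, SE 0.16, lost without fatty liver array 2). In the list of cadherins and protocadherins, which leaves out E-cadherin (Cdh1, higher by 2.37 and described with the epithelial junctions), 11 of 16 tested genes fell (68.8%) and 0 rose, with the lowest median of the 44 process lists, -1.05, while 17 of its 40 listed genes lay at or below the limit on all 6 arrays. Fat1, a giant cadherin, read 10.09, 10.04 and 10.03 against 8.99, 8.64 and 9.01 (difference -1.18, SE 0.12, adjusted p = 0.000162). The count of 11 held without any 1 array, 1 cadherin rose without healthy liver vehicle array 2 or fatty liver vehicle array 3 or with the replicate block, and with averaging 2 of 16 members were lower and 0 actin genes were.

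Many matrix genes were lower in fatty liver, and the size of the difference varied with the array. Collagens and their processing enzymes fell in 14 of 30 cases and rose in 0 (median -0.81), and matrix glycoproteins and proteoglycans fell in 15 of 33 and rose in 3 (median -0.89). Within arrays 1 and 3 the medians were -0.61 and -0.64, and within array 2 they were -1.23 and -1.27. The 12 tested fibroblast markers had medians of -0.24 within arrays 1 and 3 and -1.43 within array 2. The fibroblast list includes matrix genes itself, such as Col1a1, Col1a2, Col3a1, Dcn and Lum, so it is no separate reading of cell number. The part of fibroblasts in these differences was not tested. Serpinh1, the collagen chaperone, read 9.84, 10.04 and 9.92 in healthy and 8.93, 8.87 and 8.89 in fatty liver (difference -1.04, SE 0.14, adjusted p = 0.00046). Hspg2, the basement membrane proteoglycan perlecan, read 10.78, 10.89 and 10.83 against 9.84, 9.42 and 9.79 (difference -1.15, SE 0.14). Fbln2, a fibulin of elastic matrix, read 9.58, 9.97 and 9.56 against 8.52, 8.27 and 8.47 (difference -1.29, SE 0.19). These genes were apart on every array, whereas Col1a1, the main fibrillar collagen, chosen for display after its values were seen, read 6.84, 10.78 and 6.45 against 7.03, 9.35 and 6.98 (adjusted p = 0.877). The rises were led by Thbs1, thrombospondin 1, at 8.03, 11.21 and 8.17 against 12.18, 12.52 and 12.11 (difference 3.13, SE 0.80). Vcan, the proteoglycan versican, rose by 1.37 (SE 0.49, adjusted p = 0.0398) and kept its call in just 2 of the 12 fits with an array left out, those without array 1 or 3 of fatty liver under anti-VEGF. Glycoprotein rises numbered 1 without array 1 or 3 of healthy liver or array 2 of fatty liver, and 1 collagen gene rose without healthy liver array 2. With averaging, 5 glycoprotein genes (15.2%) and 2 collagen genes (6.67%) were lower, beside 0.956% of all genes.

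Among enzymes that cut or modify the matrix, the shares of calls lay near or below those of all tested genes. Matrix proteases and inhibitors fell in 8 of 30 cases and rose in 4, below the background in both directions. Mmp11, the stromelysin of remodelling stroma, read 6.84, 7.0 and 6.73 in healthy and 5.66, 5.61 and 5.58 in fatty liver (difference -1.24, SE 0.17, adjusted p = 0.000482). Mmp13, a collagenase, read 9.14, 10.69 and 9.04 against 11.62, 11.77 and 11.60 (difference 2.04, SE 0.34). The rises numbered 2 without array 1 or 3 of healthy liver or array 2 of fatty liver. Proteoglycan enzymes and cores fell in 8 of 26 cases (30.8%) and rose in 6 (23.1%), near the 30.4% and 19.2% of all tested genes. Sdc2, a syndecan, fell from 10.99, 10.67 and 10.96 to 10.06, 9.47 and 10.15. Sdc3, another, rose from 8.96, 10.12 and 9.02 to 10.95, 10.98 and 10.93. With averaging, Mmp11 kept its call (adjusted p = 0.0494) and no other gene of these lists did.

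**Figure D5:**
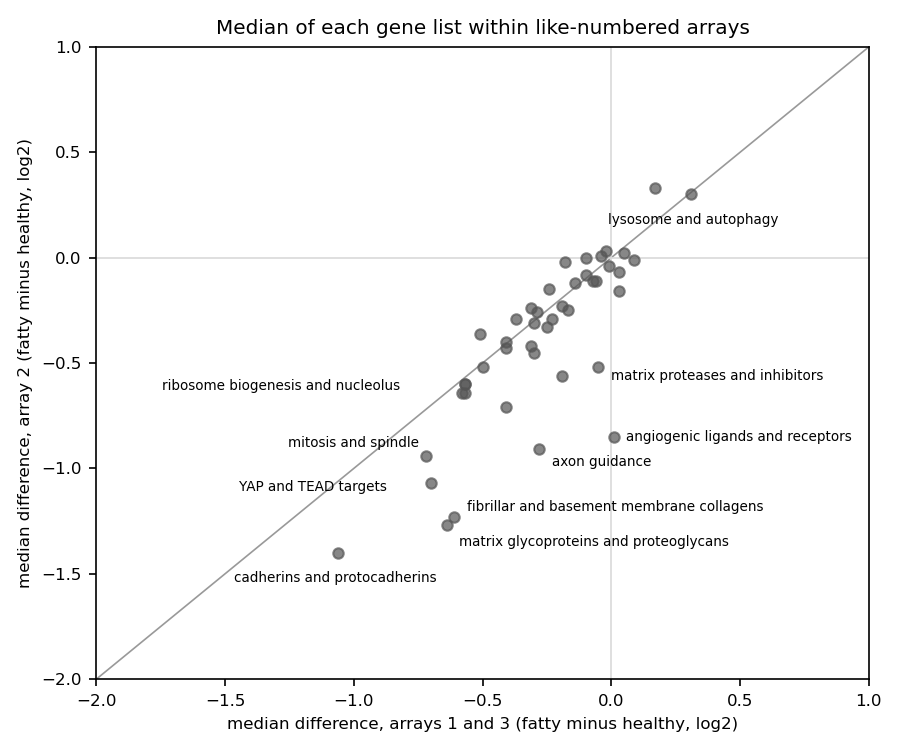
Median fatty minus healthy difference (log2) of each of 44 gene lists within arrays 1 and 3 (horizontal axis) and within array 2 (vertical axis), 1 point per list, with the line of equality; 10 lists are named. The ribosome biogenesis list lies near the line, at -0.57 and -0.60, and the mitosis list below it, at -0.72 and -0.94, while collagens (-0.61 and -1.23) and angiogenic genes (0.01 and -0.85) lie farther below it.

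Regulators of mesenchymal identity and position were among the lower genes. Mesenchymal regulators fell in 9 of 22 cases and rose in 2 (median -0.38), and with averaging 3 of 22 were lower (13.6%) and 1, Tgfbi, was higher (adjusted p = 0.0444). Twist2, a repressor of epithelial genes, read 8.59, 8.77 and 8.87 in healthy and 7.4, 6.99 and 7.53 in fatty liver (difference -1.44, SE 0.24, adjusted p = 0.00111). Snai1, another, read 7.85, 7.81 and 7.92 against 6.90, 6.85 and 6.58 (difference -1.09, SE 0.15). Prrx1, a homeobox gene of mesenchyme, read 10.69, 10.75 and 10.77 against 9.93, 9.56 and 9.90 (difference -0.94, SE 0.12), and Osr2 fell by 1.58 (SE 0.21). Against them Tgfbi, a matrix protein induced by TGF-beta, rose from 11.65, 11.89 and 11.63 to 12.54, 12.67 and 12.49. Homeobox genes fell in 11 of 20 tested cases and rose in 0, with Meis2 at 8.56, 8.36 and 8.50 against 7.53, 6.97 and 7.54 and Hoxd10 at 8.01, 7.92 and 8.14 against 7.28, 6.64 and 7.16. Leaving out vehicle array 2 of healthy liver or anti-VEGF array 3 of fatty liver, or using the replicate block on the vehicle arrays alone, gave 1 rise. Of the 47 listed homeobox genes 40 had a row, and 17 of these lay at or below the limit on all 6 arrays. With averaging 0 homeobox genes were called.

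Growth factor receptors and ERK feedback genes were more often lower than higher, and many were not called. Receptor tyrosine kinases and ligands fell in 15 of 32 cases and rose in 1 (median -0.45). Pdgfra, the receptor for platelet-derived growth factor A, read 10.98, 10.82 and 10.80 in healthy and 9.74, 9.44 and 9.74 in fatty liver (difference -1.22, SE 0.23, adjusted p = 0.00233). Erbb2 read 8.31, 8.10 and 8.37 against 7.28, 6.72 and 7.25 (difference -1.18, SE 0.27), and Fgfr1 10.57, 10.46 and 10.52 against 9.79, 9.16 and 9.74 (difference -0.95, SE 0.19). The rise was Hgf, the ligand of Met, at 5.02, 6.40 and 4.98 against 7.02, 7.15 and 6.92 (difference 1.56, SE 0.36); 4 genes rose without vehicle array 2 of healthy liver, and 3 and 2 when anti-VEGF array 1 or 2 of fatty liver was left out. With the replicate block on the vehicle arrays alone 3 rose. Genes induced by ERK that restrain it fell in 10 of 19 cases and rose in 2, with Spry4 at 10.25, 10.10 and 10.28 against 9.38, 8.67 and 9.26 (difference -1.10, SE 0.18) and the phosphatase gene Dusp5 higher, at 9.18, 9.27 and 9.18 against 9.99, 10.65 and 10.07. Leaving out vehicle array 1 of healthy liver or vehicle array 2 or 3 of fatty liver left 1 rise in this list, and leaving out anti-VEGF array 3 of fatty liver gave 4. Myc, a driver of growth, read 11.59, 11.42 and 11.58 against 11.10, 10.53 and 11.10 (difference -0.62, SE 0.14, adjusted p = 0.0056). With averaging, 2 receptor or ligand genes were lower and 0 feedback genes.

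TGF-beta and Wnt genes were mixed. In the TGF-beta and BMP list 10 of 33 genes fell (30.3%) and 7 rose (21.2%), shares close to the background. Tgfbr3, a coreceptor, read 9.76, 9.81 and 9.77 in healthy and 8.89, 8.4 and 8.86 in fatty liver (difference -1.06, SE 0.14, adjusted p = 0.000356), and the BMP receptor gene Bmpr1a fell by 1.14 (SE 0.21). The signalling receptor gene Tgfbr1 rose instead, from 7.82, 8.39 and 7.90 to 8.93, 8.78 and 8.89. Rises numbered 4 without array 1 or 3 of healthy liver or array 2 of fatty liver. In the Wnt list 10 of 24 genes fell and 3 rose (median -0.32), and 5 fell without healthy liver array 3 or fatty liver array 2. Apcdd1, a Wnt inhibitor that is itself a target, read 9.48, 9.57 and 9.54 against 8.6, 8.41 and 8.63 (difference -0.99, SE 0.20), and Znrf3, which removes Wnt receptors, 8.58, 8.23 and 8.69 against 7.72, 7.18 and 7.62. The stem cell target Lgr5 lay below the limit on all 6 arrays. With averaging, 2 TGF-beta and BMP genes were lower and 0 Wnt genes.

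Guidance and clock genes were more often lower than higher, the clock genes at shares not far from the background. Of 30 tested axon guidance genes 13 fell and 4 rose (median -0.57; -0.28 within arrays 1 and 3 and -0.91 within array 2). The netrin receptor gene Unc5b read 9.76, 9.77 and 9.76 in healthy and 8.94, 8.27 and 8.86 in fatty liver (difference -1.07, SE 0.21, adjusted p = 0.00248), and the ephrin gene Efna1 9.62, 9.56 and 9.68 against 8.8, 8.4 and 8.74. The semaphorins of leukocytes rose: Sema4a read 5.75, 6.80 and 5.96 against 8.72, 9.37 and 8.63, and Sema4d 6.72, 7.66 and 6.78 against 9.37, 9.65 and 9.40. In the clock list 7 of 18 genes fell (38.9%) and 3 rose (16.7%), beside 30.4% and 19.2% of all tested genes. The repressor genes Nr1d1 (9.06, 8.90 and 9.06 against 8.19, 7.70 and 8.09) and Nr1d2 (difference -1.06, SE 0.16) fell, and Nfil3 rose from 7.79, 7.73 and 7.79 to 8.99, 9.13 and 8.95. Clock falls numbered 4, 4 and 3 without array 1 or 3 of healthy liver or array 2 of fatty liver, and rises 1 without healthy liver array 3 or fatty liver array 2. The hour of collection is unknown here. With averaging, Sema4a and Sema4d kept their calls, Sema3a, a secreted semaphorin, was lower, and 0 clock genes passed.

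Amino acid synthesis genes were more often lower than higher, and glycolysis genes were called below the background in both directions. Of 30 tested ATF4 targets and genes of amino acid synthesis 17 fell (56.7%) and 5 rose (median -0.46). Asns, asparagine synthetase, read 10.76, 10.61 and 10.80 in healthy and 10.04, 9.58 and 9.99 in fatty liver (difference -0.85, SE 0.17, adjusted p = 0.0029). Slc1a4, a transporter of neutral amino acids, read 8.38, 8.34 and 8.50 against 7.60, 7.34 and 7.50 (difference -0.93, SE 0.14), and the folate enzyme gene Aldh1l2 fell by 1.27 (SE 0.24). In contrast Slc7a11, the cystine transporter, rose from 6.41, 8.03 and 6.76 to 9.56, 10.70 and 9.67 (difference 2.91, SE 0.61). Glycolysis and lactate genes fell in 6 of 23 cases and rose in 4: the lactate carrier gene Slc16a1 fell from 11.14, 10.78 and 11.10 to 10.23, 9.72 and 10.26, and Hk3, a hexokinase of myeloid cells, rose from 6.28, 7.43 and 6.07 to 8.82, 9.51 and 8.95. The glycolytic falls numbered 1 without healthy liver array 1 or 3, 3 without fatty liver array 1 and 2 without fatty liver array 2, and the rises 2 without array 2 of either liver and 7 without fatty liver anti-VEGF array 1. With averaging, Hk3 kept its call (adjusted p = 0.0396) and 0 ATF4 targets did.

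Redox and iron genes were called in both directions, at shares not far from those of all tested genes. NRF2 targets and glutathione genes fell in 10 of 32 cases and rose in 6, near the background. Gpx8, a peroxidase of the endoplasmic reticulum, read 11.08, 10.86 and 11.13 in healthy and 10.02, 9.63 and 9.83 in fatty liver (difference -1.2, SE 0.13, adjusted p = 0.000176). Hmox1, which degrades heme, read 10.37, 11.09 and 10.38 against 12.01, 12.27 and 11.99 (difference 1.47, SE 0.27). In the iron, heme and metallothionein list 7 of 26 genes fell and 7 rose (26.9% each), beside 30.4% and 19.2% of all tested genes. Slc40a1, the iron exporter, read 6.59, 7.88 and 6.36 against 9.90, 10.12 and 9.97 (difference 3.06, SE 0.54), and Slc11a1, an iron transporter of phagosomes, 8.73, 9.80 and 8.94 against 11.33, 11.48 and 11.40 (difference 2.25, SE 0.22). Alad, an enzyme of heme synthesis, fell by 0.75 (SE 0.12). NRF2 falls numbered 5 without array 1 or 3 of healthy liver or array 2 of fatty liver. Iron list falls numbered 3 without those arrays, 4 without fatty liver array 3 and 11 without fatty liver anti-VEGF array 1 or with the replicate block on the vehicle arrays alone. With averaging, Gpx8 (adjusted p = 0.0381) and Slc11a1 (adjusted p = 0.0381) kept their calls.

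The 10 rises with the widest gaps were mostly genes of cytotoxic lymphocytes. Ctsw, a cathepsin of NK and cytotoxic T cells, read 4.88, 5.30 and 5.28 in healthy and 8.86, 9.54 and 8.73 in fatty liver (difference 3.89, SE 0.60, adjusted p = 0.000833). Xcl1, a chemokine that attracts dendritic cells, read 5.09, 5.04 and 4.40 against 8.50, 9.01 and 8.43, and Cd7 4.08, 4.89 and 4.45 against 8.08, 8.53 and 8.09. The others were Ncr1, the granzyme genes Gzma, Gzmc and Gzmd, the NK receptor genes Klrd1 and Klrb1f, and the tissue kallikrein gene Klk1, which read 4.15, 4.22 and 3.89 against 7.84, 7.47 and 7.71. The healthy liver means of 8 of the 10 lay below the limit, so these differences may understate the change. Granzyme, kallikrein and Klrb1 genes have near-identical copies, and which copy a row reads is uncertain. Their differences ran from 3.59 to 4.54, and 0 of the 10 kept the call with averaging, at adjusted p from 0.0579 to 0.104. Ncr1, Klrd1 and Gzma are themselves members of the T and NK cell marker list given above. Its means therefore move with these genes in part by construction and are no separate reading. The part of such cells in the rises was not tested.

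Lysosome and autophagy genes were the process list with the largest share of rises. Of 37 tested genes 20 rose (54.1%) and 4 fell, with a median of 0.33, and on 28 of them every fatty liver array lay above every healthy liver array. Neu1, the lysosomal sialidase, read 7.43, 7.71 and 7.54 in healthy and 8.86, 9.25 and 8.83 in fatty liver (difference 1.42, SE 0.13, adjusted p = 0.000106). The cathepsin genes Ctsh (8.37, 9.73 and 8.52 against 10.87, 11.12 and 10.92) and Ctss rose as well. Tfeb, the transcription factor of lysosome genes, read 4.39, 4.40 and 4.35 against 5.08, 5.33 and 5.20, close to the limit. Wipi1, an early autophagy protein, fell from 9.02, 9.06 and 9.05 to 8.25, 7.95 and 8.20. Falls numbered 2 with the replicate block on the vehicle arrays alone and in 7 of the 12 fits with an array left out (vehicle array 3 of healthy liver, each vehicle array of fatty liver and each anti-VEGF array of healthy liver). With averaging 3 genes were higher (8.11%), beside 4.47% of all genes, and 1 was lower. Macrophages are rich in lysosomes, and the macrophage marker means rose between the same arrays; their part was not tested.

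Further rises stood in lists of coagulation, of p53 response and apoptosis, and of ion channels and pumps. Coagulation genes rose in 8 of 18 tested cases (44.4%) and fell in 5 (27.8%), beside 19.2% and 30.4% of all tested genes. Factor X, F10, read 6.22, 7.76 and 6.16 in healthy and 10.25, 11.15 and 10.11 in fatty liver (difference 3.79, SE 0.65, adjusted p = 0.00138), and factor VII, F7, 6.61, 7.50 and 6.91 against 9.40, 9.83 and 9.38 (difference 2.53, SE 0.22). The fibrinogen genes Fga, Fgb and Fgg lay below the limit on all 6 arrays. Which cells carried the F10 and F7 rises was not tested. Genes of p53 response and apoptosis rose in 9 of 25 cases and fell in 5: Bid, a linker to mitochondrial death, read 5.43, 6.22 and 5.38 against 7.17, 7.45 and 7.18, and Tnfrsf10b, the TRAIL receptor, fell from 9.03, 8.92 and 9.07 to 7.91, 7.60 and 7.98. The falls of that list numbered 3 without healthy liver array 1. Ion channels and pumps rose in 8 of 28 cases and fell in 5, or 8 without fatty liver anti-VEGF array 3 or with the replicate block on the vehicle arrays alone, with the sodium pump subunit Atp1b1 at 5.06, 5.11 and 5.18 against 7.83, 8.05 and 7.78. With averaging, F7 was higher and Serpinf1 lower in the first list, Bid higher and Tnfrsf10b lower in the second, and 2 channel genes were higher.

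Epithelial junction genes also held rises. Desmosome, tight junction and adhesion genes rose in 6 of 19 cases (31.6%) and fell in 3 (15.8%), with a median of 0.02. Of all tested genes 19.2% rose and 30.4% fell. Lsr, a protein of tricellular junctions, read 4.86, 5.30 and 5.10 in healthy and 7.33, 7.94 and 7.21 in fatty liver (difference 2.41, SE 0.32, adjusted p = 0.000421), and it kept its call with averaging (adjusted p = 0.0444). E-cadherin, Cdh1, read 5.82, 6.4 and 5.63 against 8.23, 8.67 and 8.06 (difference 2.37, SE 0.48), and Cldn1 rose from a mean below the limit, at 4.5, 4.56 and 4.89 against 6.89, 6.53 and 6.69. The scaffold genes Pard3 (-0.93, SE 0.25) and Pkp2 (-1.05, SE 0.29) fell. Cdh1 is also made by some dendritic cells, whose 8 tested markers rose in 6 cases, and Epcam stayed below the limit. The part of those cells in these rises was not tested.

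Chromatin regulators were more often lower than higher, and secretory genes were called at shares near or below the background. Chromatin regulators fell in 16 of 37 cases (43.2%) and rose in 4 (10.8%), with a median of -0.22. Cbx5, the heterochromatin protein HP1 alpha, read 10.62, 10.26 and 10.72 in healthy and 9.64, 9.31 and 9.82 in fatty liver (difference -0.95, SE 0.22, adjusted p = 0.00563), and Prmt5, an arginine methyltransferase, fell by 0.68 (SE 0.14). Kdm6a, a demethylase of histone H3 encoded on the X chromosome, rose from 8.03, 8.18 and 8.06 to 9.24, 9.22 and 9.34 (difference 1.17, SE 0.13), array 2 included. Dnmt3a, a DNA methyltransferase, rose by 0.79 (SE 0.10), and with averaging these 2 rises were the calls left in the list, at adjusted p of 0.0436 and 0.0421. Genes of secretion and endoplasmic reticulum chaperones fell in 7 of 30 cases (23.3%) and rose in 6 (20.0%), beside 30.4% and 19.2% of all tested genes. The rises were led by the stress sensor gene Ern1, at 8.63, 8.70 and 8.55 against 9.49, 9.60 and 9.49 (difference 0.90, SE 0.12). Those falls numbered 3, 2, 3, 3 and 3 without healthy liver array 1 or 3 or fatty liver array 1, 2 or 3, and with averaging 0 of the 30 passed.

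Hypoxia and angiogenesis genes showed little common movement. Hypoxia genes rose in 5 of 26 cases (19.2%) and fell in 4 (15.4%), beside 19.2% and 30.4% of all tested genes (median -0.07). Vegfa, the target of the antiangiogenic agent, read 9.69, 9.46 and 9.75 in healthy and 10.06, 10.19 and 9.93 in fatty liver (difference 0.43, SE 0.12, adjusted p = 0.0128), and leaving out fatty liver array 2 ended the call (adjusted p = 0.0526). Plod2, a collagen-modifying target of hypoxia, fell from 9.79, 9.51 and 9.79 to 8.78, 7.97 and 8.62. Hypoxia rises numbered 3 without healthy liver array 1 or 2 and 1 without fatty liver array 2, and falls 2 without healthy liver array 1 or fatty liver array 1 or 3. Falls numbered 7 when anti-VEGF array 1 or 3 of fatty liver was left out. With the replicate block on the vehicle arrays alone 3 rose and 7 fell. Angiogenic ligands and receptors fell in 7 of 29 cases (24.1%) and rose in 3 (10.3%), below the background in both directions. Their medians were 0.01 within arrays 1 and 3 and -0.85 within array 2, where endothelial markers were high. The ligand genes Vegfb (10.90, 10.55 and 10.98 against 10.16, 9.77 and 10.18) and Vegfd (8.72, 7.96 and 8.80 against 7.57, 6.82 and 7.25) fell, and the coreceptor gene Nrp1 rose (6.94, 8.93 and 7.02 against 9.48, 9.75 and 9.60). Angiogenic falls numbered 4 without fatty liver array 3, and rises 6 without healthy liver array 2 and 1 without fatty liver array 2. With averaging, 0 genes of both lists passed.

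The same liver comparison on the anti-VEGF arrays was read for the genes with the widest gaps and for some of the lists. It shares no array with the vehicle groups, but both comparisons came from the same fit and share its estimate of spread. The healthy liver arrays under anti-VEGF were nearly alike (SDs of difference 0.148, 0.156 and 0.153), and the counts below are given without averaging. Under anti-VEGF, 3672 of 13286 genes were lower (27.6%) and 2412 higher (18.2%) in fatty liver. All 18 falls with the widest gaps had the same sign there, from -1.45 to -0.41, and 16 were called lower, while 9 of the 10 widest rises were called higher. Ribosome biogenesis genes fell in 32 of 38 cases and YAP and TEAD targets in 19 of 27, but mitosis genes in 15 of 39 and DNA replication genes in 9 of 38. Cytosolic ribosomal protein genes fell in 10 of 34 cases, beside 1 under vehicle, and proteasome genes in 14 of 29, beside 5. Matrix glycoproteins and proteoglycans fell in 11 of 33 cases, with a median of -0.13 beside -0.89 under vehicle. For the difference of the 2 liver comparisons limma called 0 of 13286 genes (0.0%), with 677 at an unadjusted p below 0.05 and a smallest adjusted p of 0.278. Xist lay between 3.89 and 4.32 on the 6 anti-VEGF arrays, as low as on vehicle array 2 of each liver but not vehicle arrays 1 and 3. The 4 tested sex-linked genes had a median difference between the livers of 2.61 under anti-VEGF and 0.44 under vehicle, with 0 called in either. Treatment and these genes thus varied partly together, and their parts were not tested. These differences in list counts and medians, that of the mitosis genes included, are thus not shown to be differences between treatments.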

How the data were processed

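Per the labels' protocols, total RNA was amplified, labelled with biotin and hybridised to single-colour arrays. The authors deposited 1 log2 value per row and array; the log2 scale was read from the values, their quartiles were nearly equal (medians 4.88 to 4.99), and Affymetrix Expression Console is named in the submitters' processing notes. Its version, the build, the normalization and the centring were not given in the sources used here. Precision is limited by the number of arrays. Of 41345 rows, 23521 had 1 symbol in the platform annotation, 1814 several and 16010 none; only the first were used, and 23328 matched a RefSeq gene number with 0 symbols changed. Where a gene had more than 1 row (1082 genes), the brightest row on average stood for it. Of 22180 genes, 13286 lay above the table median of 4.93 on at least 3 arrays and were tested.

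All 12 arrays entered 1 limma fit (version 3.58.1, R 4.3.3; lmFit, eBayes) with a mean per group, with 8 residual and 2.40 prior degrees of freedom, and Benjamini-Hochberg adjustment over all tested genes. SEs are moderated. The members and the 62 gene lists were chosen with earlier results of these data known, and a list is described by counts and medians without a test of its own. Of 1658 listed genes 124 had no row of their own. Named genes are the 18 falls and 10 rises with the widest gap between groups among calls without overlap (leaving out predicted, clone, small RNA and receptor segment symbols), up to 4 called members of a list in its main direction and 2 in the other by gap, and a fixed set of 13 genes, of which Ddx3y had no row. On simulated data for this comparison of 13286 genes the fit recovered 22% of genes changed by 0.5, 76% by 1 and 92% by 2, with 6 false calls. Whether these shares and false calls hold when arrays of a group are nearly alike was not tested. Arrays of a group with an SD of difference under 0.3 were averaged as an alternative. Deviations of same-numbered arrays of both livers from their group means correlated at 0.536, 0.701 and 0.549. Arrays 1 and 3 correlated as highly across numbers, at 0.574 and 0.553. The values thus set array 2 of each liver apart and do not pair arrays 1 and 3.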

Additional observations from a re-analysis of the deposited data

How the results depend on the processing

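The number of genes lower in fatty liver was 4045 and ranged from 2576 to 4685 without any 1 array; the number higher was 2550 and ranged from 2057 to 2751. With nearly alike arrays averaged, 127 were lower and 594 higher, and without vehicle arrays 1 and 3 of both livers 427 and 630. Array weights gave 6164 lower. The other settings, namely other filters, row means, quantile normalization, centring, a variance trend, the 6 vehicle arrays alone and leaving out array 2 of both livers, kept both counts within 1.5 times. With the replicate number as a block 4116 were lower and 2555 higher, and 4494 and 2687 with that block on the 6 vehicle arrays by themselves. Of 289 tested genes that the naming rule takes, none changed sign while called; 61 kept their side of the threshold with averaging, 286 with the block and 255 to 288 without any 1 array. The block changed no call of a gene named in the report, and the list counts it moved are given there. The signal over background limits genes whose mean lies near the limit of 4.93.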
